A study of Mus musculus with 4 samples.

Results

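The genes described here encode the glucose and lactate transporters, the enzymes of glycolysis and of the pentose phosphate pathway, the kinases and a subunit that govern pyruvate dehydrogenase, and 3 hypoxia-linked genes. The 35 members were taken by gene symbol from a list, out of 55426 genes in the deposited tables. The rule itself uses no measured value, but the list was drawn up with earlier results of these data known. All 35 symbols were found, in 36 rows, because Aldoa stands in 2 rows. RNA was selected by poly(A) and sequenced from cultured mouse cells, 2 libraries of an MLL-ENL line and 2 of a line with a shortened fusion, labelled MLL-ENL ∆YEATS and called MLL-ENL dYEATS or the mutant here. Both lines came from lineage-negative bone marrow, and the labels class both as transformed haematopoietic stem and progenitor cells (HSPCs) grown in the same serum-supplemented medium. The genotype of the first line is the MLL-ENL fusion, which joins the start of MLL, a histone methyltransferase, to sequence of the chromatin reader ENL. The second line carries the fusion with ENL residues 372 to 559, and per its label without the histone-binding YEATS domain. The ENL residues of the first fusion, the promoter that drives either fusion, the number of lines per genotype and the oxygen level of the cultures are not stated in the sources used. The libraries of a group are called technical replicates in the design text, so p-values measure the spread between libraries, and genotype and line cannot be told apart.

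In glycolysis glucose enters through GLUT transporters, is phosphorylated by hexokinase, is split into triose phosphates and is oxidised to pyruvate, with ATP made at the phosphoglycerate kinase and pyruvate kinase steps. Pyruvate is then either reduced to lactate and exported, or passed to the mitochondrial pyruvate dehydrogenase complex, which pyruvate dehydrogenase kinases switch off. The pentose phosphate pathway branches off after hexokinase and makes NADPH and ribose phosphate. Many of these genes are known targets of the hypoxia-inducible factor HIF, whose alpha subunit is marked for destruction by oxygen-dependent prolyl hydroxylases, and of MYC. Most steps have several isoenzymes, encoded by separate genes with different tissue patterns, and mature neutrophils are known to rely strongly on glycolysis.

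HIF binds DNA at short elements with the core ACGTG or GCGTG. Promoter sequences from RefSeq (GRCm38.p6), which run from 250 bases before to 50 bases after an annotated start, were matched by symbol for 34 of the 35 members, in 48 windows. Slc2a3 was the member without one. Sequences are shown for 4 of the 7 members whose transcripts fell, Pgk1, Slc16a3, Pdk3 and Aldoc, and for Slc2a1, which did not fall. For each gene the 250 bases before the start are given, from the first window listed. They read 5′ to 3′ on the strand of the gene, and capitals mark ACGTG or GCGTG on either strand.
Pgk1 (chrX:106186850-106187099, plus strand): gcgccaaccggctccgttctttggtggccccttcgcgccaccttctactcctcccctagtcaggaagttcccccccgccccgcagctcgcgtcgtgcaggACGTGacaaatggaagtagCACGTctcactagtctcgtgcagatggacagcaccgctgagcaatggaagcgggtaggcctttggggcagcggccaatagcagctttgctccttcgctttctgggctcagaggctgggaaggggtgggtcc
Slc16a3 (chr11:120948817-120949066, plus strand): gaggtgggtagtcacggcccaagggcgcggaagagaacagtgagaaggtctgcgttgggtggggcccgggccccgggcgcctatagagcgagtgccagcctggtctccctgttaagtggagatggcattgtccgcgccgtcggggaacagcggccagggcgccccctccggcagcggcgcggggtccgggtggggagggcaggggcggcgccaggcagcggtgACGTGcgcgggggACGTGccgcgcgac
Pdk3 (chrX:93832151-93832400, minus strand): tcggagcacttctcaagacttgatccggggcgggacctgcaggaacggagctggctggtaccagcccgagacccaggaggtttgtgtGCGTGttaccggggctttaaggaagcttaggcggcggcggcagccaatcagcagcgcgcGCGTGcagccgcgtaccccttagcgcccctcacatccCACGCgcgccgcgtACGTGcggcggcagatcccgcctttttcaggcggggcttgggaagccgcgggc
Aldoc (chr11:78322823-78323072, plus strand): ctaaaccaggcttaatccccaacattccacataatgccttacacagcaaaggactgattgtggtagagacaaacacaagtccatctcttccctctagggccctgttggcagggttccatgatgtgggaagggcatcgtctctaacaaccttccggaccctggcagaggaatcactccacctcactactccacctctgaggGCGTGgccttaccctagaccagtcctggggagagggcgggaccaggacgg
Slc2a1 (chr4:119108495-119108744, plus strand): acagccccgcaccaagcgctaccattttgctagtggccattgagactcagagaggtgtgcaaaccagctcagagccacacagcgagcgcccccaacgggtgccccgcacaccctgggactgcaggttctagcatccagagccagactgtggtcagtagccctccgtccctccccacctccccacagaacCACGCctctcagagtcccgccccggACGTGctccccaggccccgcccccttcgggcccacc
Counted over both strands and the whole 300 bases, ACGTG was found in 23 of 48 member windows (47.9%) and in 25.7% of 12190 windows of genes that were tested here. GCGTG was found in 28 of 48 (58.3%) against 50.1%, and either core in 39 of 48 (81.2%) against 61.7%. The palindrome CACGTG, an E-box that MYC can bind and that holds ACGTG on both strands, was found in 6 of 48 (12.5%) against 10.1%. Of all 32851 windows in the table, whatever the expression of the gene, 43.8% held either core, 19.6% the first core, 32.4% the second and 7.15% the E-box. Median GC content was 60.8% in member windows and 60.3% in windows of tested genes. By gene, either core was found for 6 of 6 called members with a window and for 25 of 28 other members. The first core, ACGTG, was found for 6 of 6 and 14 of 28, and a link with the calls was not tested. Windows of a gene can overlap, and a match describes the letters only, not binding.

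Totals lay between 27812855 and 28814798 expected counts per library. The 2 MLL-ENL libraries differed from each other more than the 2 mutant libraries did, with a chi-square per degree of freedom of 89.8 against 1.99 over genes with at least 10 counts. The ribosomal RNA gene CT010467.1 took 9.25% of counts in MLL-ENL replicate 1 and 4.94% to 5.46% in the other libraries. Across 13237 genes, which are not independent replicates, the log2 ratio of MLL-ENL replicate 1 to replicate 2 fell with exonic length (Spearman's rho = -0.41). These differences within the MLL-ENL pair touch the members too: 21 of 33 tested members were higher in replicate 1 than in replicate 2, with a median log2 ratio of 0.23 against -0.02 over all genes tested. Median exonic length was 4133 bases in members and 4059 in all genes tested. It counts all annotated exons of a gene, merged, and not the transcripts expressed. These medians thus do not show how far the length trend falls on the members.

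Levels are given as CPM, counts scaled to the library total with a correction for composition, when 1 gene is followed across libraries, and as the authors' FPKM, which is scaled by gene length, when genes are compared. The 6 glycolytic genes Gapdh, Ldha, Aldoa, Eno1, Gpi1 and Pkm had a mean over 1000 FPKM, a level reached by 95 genes in all. Gapdh stood highest of the members, at 2738 FPKM on average over the 4 libraries and in place 12 of all genes. The members together took 2.68% and 2.26% of expected counts with MLL-ENL and 2.00% and 1.99% with MLL-ENL dYEATS. Both mutant libraries were thus below both MLL-ENL libraries, and the pair of MLL-ENL libraries differed more between themselves than the mutant pair did.

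Of 33 members that passed the filter on low counts, 7 fell with MLL-ENL dYEATS and 0 rose (edgeR's quasi-likelihood test, Benjamini-Hochberg adjusted p under 0.05). Over all 13245 genes tested, 9.84% fell, 7.04% rose and 16.9% were called in either direction. The 7 were Aldoc, Slc2a3, Pdk3, Egln3, Slc16a3, Pgk1 and Hk1, and 3 of these, Aldoc, Slc2a3 and Pdk3, fell by more than 1 on the log2 scale. In bulk libraries such as these, fewer cells of a kind and less RNA per cell cannot be told apart. Log2 fold changes (MLL-ENL dYEATS minus MLL-ENL) were below 0 in 29 of the 33, against 51.2% of all genes tested. Their median was -0.35 (quartiles -0.54 and -0.17), and the median of all genes tested was -0.01 (quartiles -0.32 and 0.27). The groups did not overlap in 26 of the 33 members, 24 of them lower in the mutant, where 64.3% of all genes tested did not overlap and 32.2% were lower without overlap. The 3 rows left out by the filter were Eno2 and Ldhb, with at most 4 counts in a library, and the second Aldoa row, with 5 and 2 counts with MLL-ENL and 0 in the others.

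**Figure D1:**
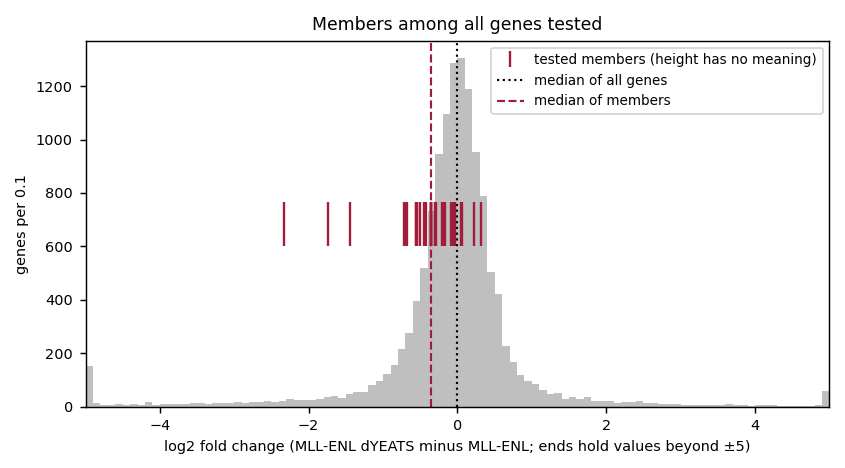
Histogram of log2 fold changes (MLL-ENL dYEATS minus MLL-ENL) of 13245 genes in bins of 0.1, with a tick for each of 33 tested members and lines at both medians. Most ticks lie left of 0, at a median of -0.35, and 3 lie apart below -1.

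**Figure D2:**
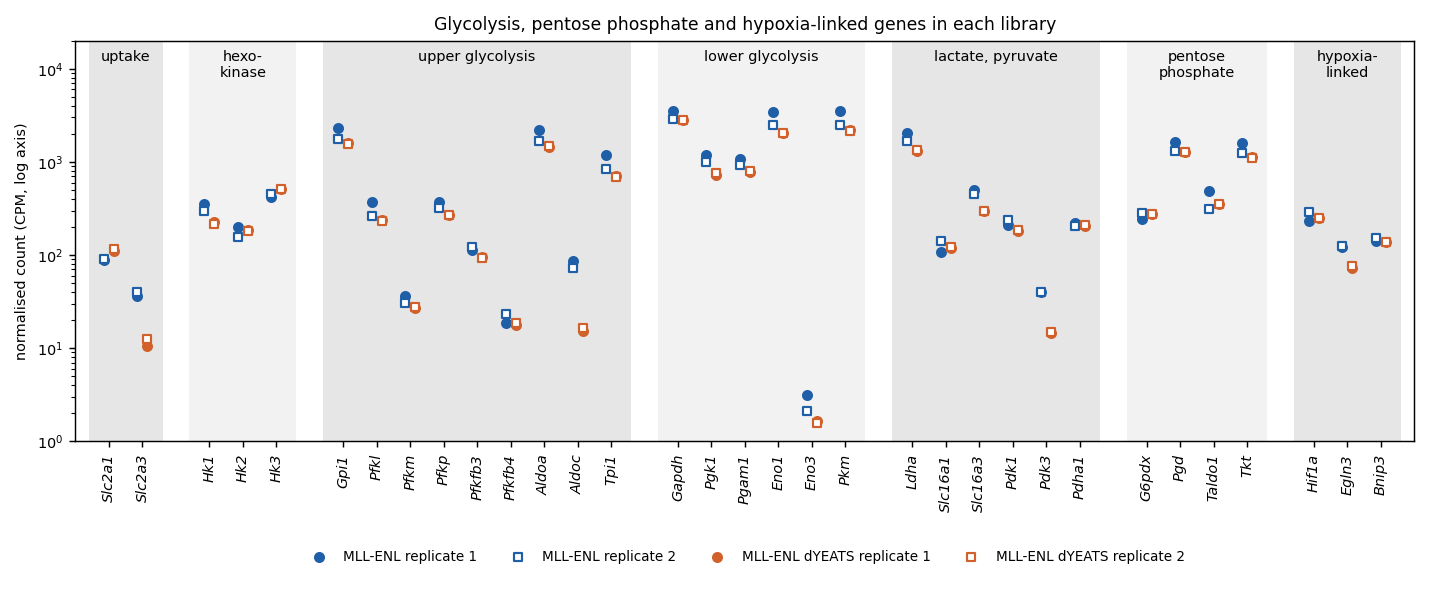
Normalised counts (CPM, log axis) of the 33 tested members in each library, grouped by step. MLL-ENL libraries are blue and MLL-ENL dYEATS libraries orange, with filled circles for replicate 1 and open squares for replicate 2, and the wide gaps between groups are at Slc2a3, Aldoc and Pdk3.

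In glucose uptake Slc2a3 fell, while the summed FPKM of Slc2a3 and Slc2a1 was alike in the groups. Slc2a3, which encodes the high-affinity transporter GLUT3 (chromosome 6, 122727809 to 122801640, GRCm38), was at 36.2 and 40.1 CPM with MLL-ENL and at 10.4 and 12.4 CPM with MLL-ENL dYEATS. It fell 3.35-fold, with no overlap (log2 fold change -1.74 ± 0.14 SE, adjusted p = 0.00161). Slc2a1, which encodes the widespread transporter GLUT1 (chromosome 4, 119108711 to 119137983), was at 89.1 and 91.3 CPM against 110 and 115 CPM. Both mutant libraries were above both MLL-ENL libraries, but the difference was not called (0.32 ± 0.10 SE, adjusted p = 0.1). The summed FPKM of both genes was 42.4 and 45.1 with MLL-ENL and 42.0 and 44.9 with the mutant. Within that sum Slc2a1 made up 77.0% and 71.6% with MLL-ENL and 92.8% and 92.2% with the mutant. With Slc2a6, a transporter of lysosomes that is abundant in myeloid cells, added to the family, the mean share of Slc2a1 was 64.5% against 87.0%. The sum with Slc2a6 was 48.95 and 51.7 FPKM against 44.87 and 47.47 FPKM, lower in both mutant libraries. Shares were not tested, since an exact test of 2 libraries against 2 cannot give a two-sided p below 0.333.

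At the hexokinase step Hk1 fell, while the summed level of the 3 isoenzymes was again alike in the groups. Hk1, the hexokinase of most tissues, which binds mitochondria (chromosome 10, 62268855 to 62379908), was at 353 and 299 CPM with MLL-ENL and at 225 and 218 CPM with the mutant. It fell with no overlap (-0.56 ± 0.12 SE, adjusted p = 0.0367). Hk3, the hexokinase typical of myeloid cells, was at 418 and 454 CPM against 514 and 508 CPM, higher in both mutant libraries but not called (0.23 ± 0.11 SE, adjusted p = 0.203). Hk2, the inducible isoenzyme and a HIF target in many cells, was at 200 and 155 CPM against 185 and 182 CPM, with overlap (adjusted p = 0.868). Summed hexokinase FPKM was 292 and 310 with MLL-ENL and 315 and 303 with the mutant. Hk3 was the largest part in every library, with 50.6% and 58.0% of the sum with MLL-ENL and 64.0% in each mutant library, while Hk1 made up 35.2% and 30.0% against 22.0% in each.

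**Figure D3:**
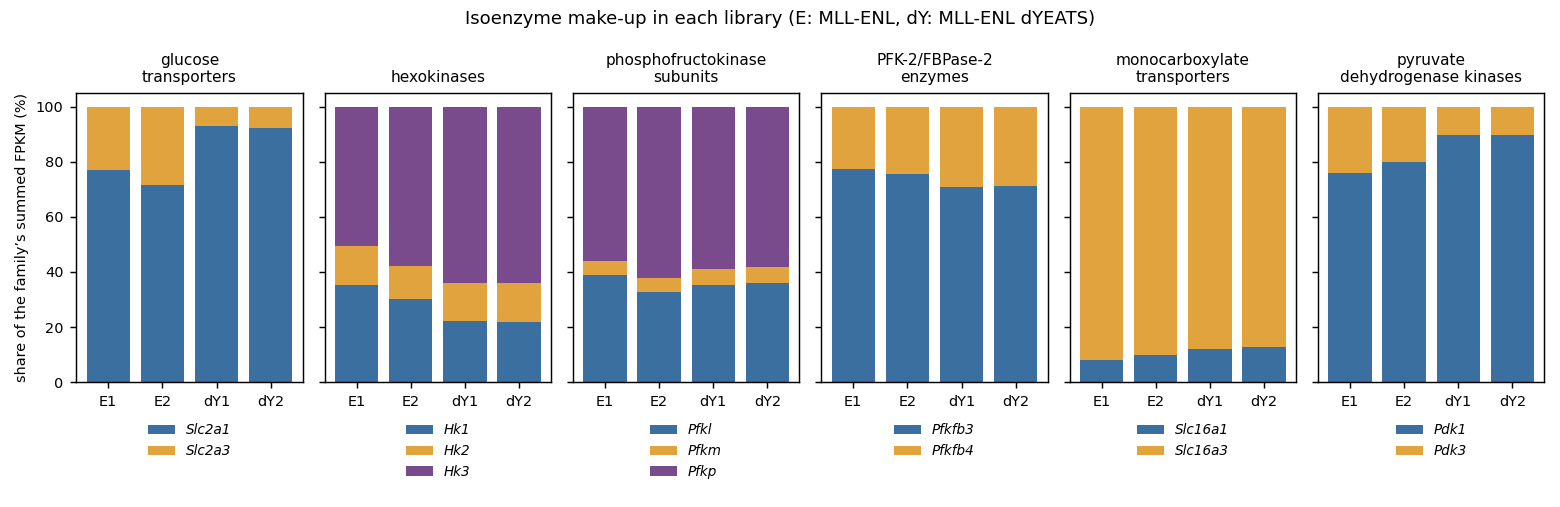
Stacked bars of each gene's share (%) of the summed FPKM of its family, for the MLL-ENL libraries (E1, E2) and the MLL-ENL dYEATS libraries (dY1, dY2), with 1 panel per family. Slc2a3, Hk1 and Pdk3 take smaller shares in both mutant libraries, and phosphofructokinase shares are alike in all 4.

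In upper glycolysis 1 of 9 tested members, Aldoc, was called, where 16.9% of all genes tested were called. Aldoc encodes the brain-type aldolase C (chromosome 11, 78322968 to 78327781) and lay at 85.9 and 73.2 CPM with MLL-ENL and at 15.3 and 16.4 CPM with the mutant. It fell 5.01-fold, the largest change of all members (-2.33 ± 0.14 SE, adjusted p = 0.000604). Aldoa, the most abundant aldolase here, was at 2220 and 1684 CPM against 1449 and 1464 CPM and was not called (adjusted p = 0.136). Aldoc made up 2.44% and 2.63% of aldolase FPKM with MLL-ENL and 0.762% and 0.781% with the mutant, a small part of the family in all 4 libraries.

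The other 8 members of upper glycolysis were not called, and all 8 had log2 fold changes below 0, from -0.54 for triosephosphate isomerase (Tpi1) to -0.19 for Pfkfb4, which turned to 0.15 with limma on log2(FPKM + 1). Tpi1 was at 1199 and 832 CPM against 706 and 691 CPM, with MLL-ENL replicate 1 well above the other 3 libraries. Glucose-6-phosphate isomerase (Gpi1) was at 2313 and 1742 CPM against 1594 and 1572 CPM. The phosphofructokinase subunits Pfkl (liver type), Pfkp (platelet type) and Pfkm (muscle type), which form the committed step, had log2 fold changes of -0.43, -0.35 and -0.31. Their shares were much the same in both groups, with Pfkp at 55.9% and 62.3% of the summed FPKM against 59.0% and 58.3%. Pfkfb3 and Pfkfb4, bifunctional enzymes that set the level of the phosphofructokinase activator fructose-2,6-bisphosphate, were at 112 and 122 against 95.7 and 94.0 CPM and at 18.6 and 23.2 against 17.9 and 18.6 CPM.

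Lower glycolysis was also below the MLL-ENL libraries in all 6 tested members, beside 32.2% of all genes tested. Of the 6, 1 was called, Pgk1, where 16.9% of all genes tested were called. Phosphoglycerate kinase 1 (Pgk1, chromosome X, 106187100 to 106203699), the first ATP-making enzyme of the pathway, was at 1176 and 991 CPM with MLL-ENL and at 715 and 751 CPM with the mutant. It fell with no overlap (-0.56 ± 0.13 SE, adjusted p = 0.0397). Pgk1-rs7, a near-identical copy on chromosome 12, held 4616 and 2608 counts against 1669 and 145, and how reads were split between them is uncertain. With its named copies added, Pgk1 had a log2 fold change of -0.67 (adjusted p = 0.0312), a sum chosen after the data were seen. Named copies of Gapdh, Aldoa, Ldha, Pgam1 and Eno1 held at most 1.11% of the counts of their parent gene in any library. Only copies whose symbol carries the name of the parent were counted, so reads split with other copies were not examined.

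The most abundant enzymes of lower glycolysis differed by less, relative to the spread of the MLL-ENL pair. Enolase 1 (Eno1) was at 3447 and 2476 CPM against 2037 and 2036 CPM (-0.54 ± 0.18 SE, adjusted p = 0.105). Pyruvate kinase (Pkm), whose M1 and M2 splice forms are not told apart in gene totals, was at 3487 and 2476 CPM against 2192 and 2161 CPM (-0.45 ± 0.19 SE, adjusted p = 0.158). Gapdh, often used as a reference gene, was at 3554 and 2875 CPM against 2821 and 2819 CPM (-0.19 ± 0.14 SE, adjusted p = 0.414). For each of these genes both mutant libraries were below both MLL-ENL libraries, and MLL-ENL replicate 1 was the highest library. Phosphoglycerate mutase (Pgam1) was at 1064 and 933 CPM against 776 and 791 CPM (adjusted p = 0.106). The muscle enolase Eno3 was low, at 1.57 to 3.14 CPM, and the neuronal enolase Eno2 had 1 and 2 counts with MLL-ENL and 0 with the mutant, so Eno1 made up at least 99.8% of enolase FPKM in every library. Summed over the lower glycolysis genes, CPM was 12731 and 9752 with MLL-ENL and 8543 and 8560 with the mutant.

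**Figure D4:**
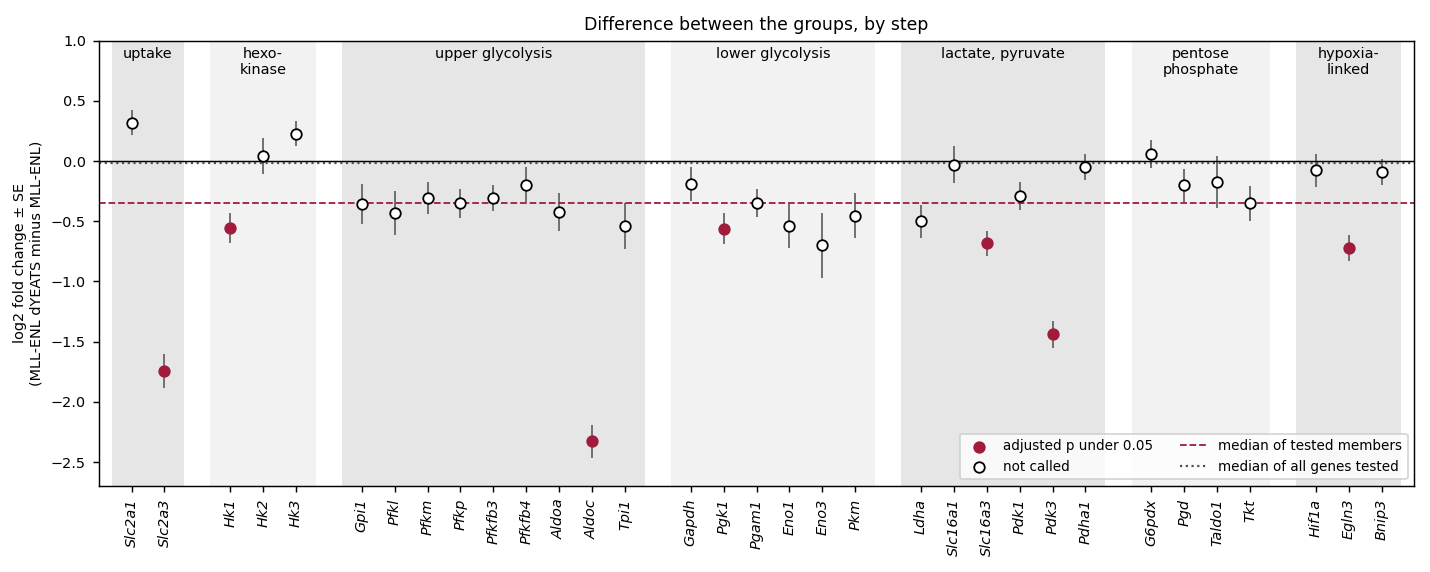
Log2 fold change (MLL-ENL dYEATS minus MLL-ENL) with its SE for the 33 tested members, grouped by step. Filled red points passed an adjusted p of 0.05, and dashed and dotted lines mark the medians of the members (-0.35) and of all genes tested (-0.01).

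At the fate of pyruvate and lactate, 2 of 6 tested members fell, where 9.84% of all genes tested fell. Slc16a3, which encodes the lactate exporter MCT4 of glycolytic cells (chromosome 11, 120948480 to 120960868), was at 498 and 454 CPM with MLL-ENL and at 298 and 295 CPM with the mutant. It fell 1.61-fold (-0.68 ± 0.11 SE, adjusted p = 0.0129). Slc16a1, which encodes the related MCT1, was at 108 and 141 CPM against 120 and 123 CPM, with overlap (adjusted p = 0.911). Slc16a3 still made up most of the family, with 92.1% and 90.2% of the FPKM with MLL-ENL and 87.8% and 87.4% with the mutant.

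Lactate dehydrogenase A (Ldha), which reduces pyruvate to lactate, was at 2041 and 1693 CPM against 1304 and 1334 CPM. The groups did not overlap, and the adjusted p of 0.0609 missed the threshold (-0.50 ± 0.13 SE). Ldhb, the heart-type subunit, had 0 counts in both MLL-ENL libraries and 1 and 4 with the mutant, so nearly all counts of the family were those of Ldha.

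Pdk3, a pyruvate dehydrogenase kinase (chromosome X, 93764607 to 93832201), was at 40.1 and 40.4 CPM with MLL-ENL and at 14.6 and 15.1 CPM with the mutant. It fell 2.71-fold with little spread in either pair (-1.44 ± 0.11 SE, adjusted p = 0.00134). Pdk1, the main kinase here and a known HIF target, was at 210 and 238 CPM against 182 and 185 CPM (adjusted p = 0.148). By FPKM Pdk3 made up 24.1% and 20.2% of the sum of both kinases with MLL-ENL and 10.5% and 10.2% with the mutant. Pdha1, the catalytic subunit that these kinases phosphorylate, was at 222 and 204 CPM against 203 and 209 CPM, with overlap (-0.05 ± 0.11 SE).

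None of the 4 pentose phosphate members was called. G6pdx, glucose-6-phosphate dehydrogenase, which feeds the oxidative branch, was at 246 and 282 CPM against 273 and 276 CPM, inside the range of the MLL-ENL pair (0.06 ± 0.11 SE, adjusted p = 0.768). Phosphogluconate dehydrogenase (Pgd) was at 1626 and 1322 CPM against 1291 and 1271 CPM. In the non-oxidative branch transketolase (Tkt) was at 1595 and 1254 CPM against 1125 and 1108 CPM (-0.35 ± 0.15 SE, adjusted p = 0.168). Transaldolase (Taldo1) was at 483 and 314 CPM against 354 in each mutant library, so the mutant pair fell between the MLL-ENL libraries.

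Among the hypoxia-linked members, Egln3 fell and the others did not pass the test. Egln3, a prolyl hydroxylase that acts on HIF alpha subunits and is itself induced by hypoxia (chromosome 12, 54178981 to 54203860), was at 121 and 125 CPM with MLL-ENL and at 72.0 and 76.5 CPM with the mutant. It fell 1.65-fold (-0.72 ± 0.11 SE, adjusted p = 0.0108). Hif1a, the HIF alpha subunit itself, was at 234 and 291 CPM against 247 and 251 CPM, with overlap (adjusted p = 0.736). Bnip3, a mitophagy receptor and HIF target, was at 141 and 152 CPM against 137 and 139 CPM (-0.09 ± 0.11 SE, adjusted p = 0.591).

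With each library left out, 28 or 29 of the 33 members were below 0, though not always the same ones, while the size of the shift moved with the MLL-ENL pair. The median over members was -0.22 without MLL-ENL replicate 1, -0.45 without MLL-ENL replicate 2, and -0.36 and -0.35 without MLL-ENL dYEATS replicates 1 and 2. Without MLL-ENL replicate 1, Taldo1 and Pdha1 moved above 0 and G6pdx below it, and without replicate 2, Hif1a and Slc16a1 moved above 0 and Hk2 below it. Aldoc, Slc2a3 and Pdk3 were called in all 4 of these fits, and of these Slc2a3 lost its call with limma on log2(FPKM + 1) without a filter (adjusted p = 0.0619). Without MLL-ENL dYEATS replicate 1 or 2 the calls of Egln3, Slc16a3, Hk1 and Pgk1 ended. Members were then called no more often than all genes tested. Log2 fold changes were then -0.68 and -0.78 for Egln3 and -0.69 and -0.69 for Slc16a3. They were -0.58 and -0.54 for Hk1 and -0.53 and -0.61 for Pgk1. In those fits the spread comes from the MLL-ENL pair, and the lone mutant library is assumed to vary alike. Without MLL-ENL replicate 1 or 2 the spread comes from the close mutant pair, and 24 members were called lower and 4 higher, or 26 lower and 5 higher, beside 57.2% and 68.6% of all genes. Hk3 and Slc2a1 were called higher in both. Another 4 members passed the threshold in opposite directions without MLL-ENL replicate 1 and without replicate 2: Taldo1 (0.17 and -0.45), Hk2 (0.24 and -0.13), Hif1a (-0.22 and 0.09) and Slc16a1 (-0.21 and 0.17).

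**Figure D5:**
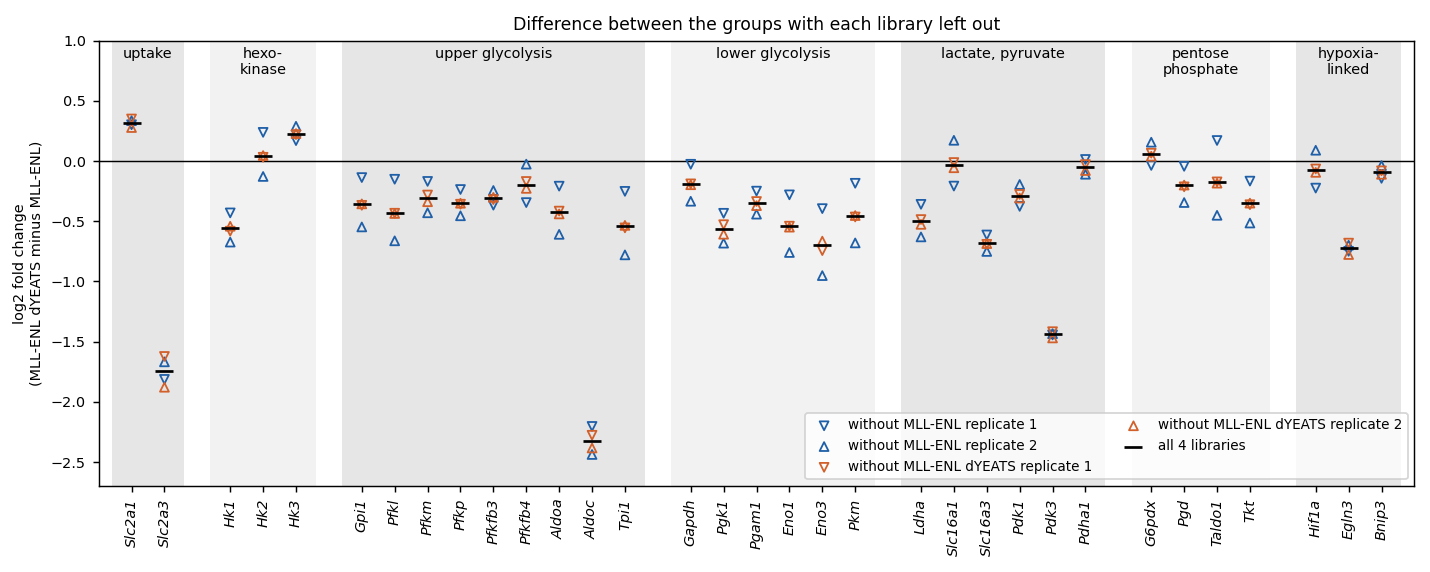
Log2 fold change (MLL-ENL dYEATS minus MLL-ENL) of the 33 tested members with all 4 libraries (black bars) and with each library left out (triangles, blue for MLL-ENL and orange for MLL-ENL dYEATS). Blue triangles spread widely for Tpi1, Pkm, Eno1 and Taldo1, and all marks of Aldoc, Slc2a3 and Pdk3 lie below -1.

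Other genes of these pathways were taken from lists that were likewise drawn up with earlier results known. Their counts stand beside 9.84% of all genes tested that fell and 7.04% that rose. Of 11 tested genes of glycolysis and gluconeogenesis outside the members, 2 fell and 0 rose, with a median of -0.14. Slc2a6 fell from 12.6 and 11.8 to 5.28 and 4.82 CPM (adjusted p = 0.00468), and pyruvate carboxylase (Pcx) from 34.2 and 29.0 to 21.7 and 19.5 CPM (adjusted p = 0.0378). Liver isoenzymes such as Pklr and Pck1 were at 0 in all libraries. Of 8 further pentose phosphate genes 1 fell, with a median of -0.47: ribose-5-phosphate isomerase (Rpia), from 233 and 196 to 136 and 133 CPM (adjusted p = 0.0217). Of 9 glycogen genes 3 fell and 0 rose, with a median of -0.30. Phosphoglucomutase 1 (Pgm1) was at 196 and 150 against 104 and 104 CPM (adjusted p = 0.0319), and the brain-type glycogen phosphorylase Pygb was at 47.5 and 51.4 against 35.7 and 33.8 CPM (adjusted p = 0.0372). The third was the liver-type phosphorylase Pygl (adjusted p = 0.0471), named to complete the count.

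Of 11 tested genes for lactate and pyruvate carriers and the pyruvate dehydrogenase complex, 2 rose and 2 fell, with a median of 0.10. Mpc2, a subunit of the mitochondrial pyruvate carrier, rose from 20.7 and 18.1 to 46.2 and 43.9 CPM (1.22 ± 0.13 SE, adjusted p = 0.00328), while its partner Mpc1 was at 99.2 and 105 against 102 and 105 CPM. Pdhx, a structural subunit of the complex, rose from 19.7 and 22.5 to 33.4 and 30.4 CPM (adjusted p = 0.0353). Another 2 genes, both low, fell with the members: Pdk2, a further kinase of the complex, from 2.05 and 2.31 to 0.136 and 0.174 CPM (adjusted p = 0.00183), and Slc16a7, which encodes the transporter MCT2, from 4.82 and 5.48 to 1.02 and 0.977 CPM (adjusted p = 0.00207). Pdk4 had 0 counts in all libraries and was not tested. Of the summed kinase FPKM, Pdk2 made up 1.38% and 1.77% with MLL-ENL and 0.192% and 0.109% with the mutant. Pdk1, which was not called, made up 74.8% and 78.3% against 89.4% and 89.7%.

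Calls among genes of the HIF pathway and further hypoxia-induced genes went in both directions, where 16.9% of all genes tested were called. Of 9 tested pathway components 1 rose and 1 fell, with a median of 0.09. Hif3a, an alpha subunit known to restrain HIF activity in some forms, rose from 5.83 and 9.0 to 24.9 and 26.1 CPM (adjusted p = 0.0059). Epas1, which encodes a further HIF alpha subunit, fell from 3.70 and 4.94 to 0.375 and 0.419 CPM (adjusted p = 0.00176). Of 22 tested hypoxia-induced genes outside the members 4 rose, 1 fell and 17 were not called, with a median of -0.01. Haem oxygenase 1 (Hmox1) rose from 15.8 and 11.8 to 34.9 and 36.1 CPM (adjusted p = 0.00596) and the lipid droplet protein Plin2 from 150 and 118 to 219 and 221 CPM (adjusted p = 0.0283), and Ddit4 and Mxi1 completed the 4. The secreted glycoprotein Stc2 fell from 152 and 132 to 81.0 and 84.2 CPM (adjusted p = 0.0119).

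Among these further genes, the calls of Pcx, Pdhx, Rpia, Pgm1, Pygb, Plin2 and Stc2 ended without MLL-ENL dYEATS replicate 1 or 2, with adjusted p from 0.122 for Stc2 to 0.543 for Pygb. Slc2a6, Mpc2, Pdk2, Slc16a7, Hif3a, Epas1 and Hmox1 were called in all 4 fits with a library left out. Of these 7, Slc2a6, Pdk2, Slc16a7, Hif3a and Epas1 lost their calls with limma on log2(FPKM + 1) without a filter, with adjusted p from 0.0668 to 0.109.

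Markers of maturation differed between the groups beside these genes. Over all genes tested 9.84% fell and 7.04% rose. Of 7 genes listed as stem and progenitor markers 2 passed the filter and both fell. Kit fell from 50.4 and 66.9 to 2.62 and 3.91 CPM, and Cd48, which is not specific to stem cells, from 3.51 and 4.94 to 0.0341 and 0.0698 CPM. Slamf1 was at 0 everywhere, and Cd34, Flt3 and Ly6a had at most 6 counts in a library, so most genes on this list were absent or nearly so. The summed level of 7 myeloid progenitor and leukocyte markers was 6332 to 7329 CPM with MLL-ENL and 3965 to 3985 CPM with the mutant, with 4 lower (Mpo, Elane, Prtn3 and Cebpa) and 1 higher (Spi1). Of 7 neutrophil markers 3 rose (Cxcr2, S100a8 and S100a9) and 1 fell (Ngp), with sums of 122 to 146 and 354 to 367 CPM. The list did not move as a whole: log2 fold changes were below 0 in 4 of the 7, with a median of -0.27. Of 7 monocyte and macrophage markers 4 rose (Adgre1, Cd68, Csf1r and Mpeg1) and 1 fell (Ly6c2), with sums of 1458 to 1532 and 1306 to 1331 CPM. Most of that sum was Ly6c2, at 1086 and 1020 against 661 and 694 CPM. Log2 fold changes were below 0 in 1 of the 7, with a median of 0.93. Erythroid, megakaryocyte, B-lymphoid, T-lymphoid and NK, and stromal markers summed to at most 2.50 CPM in any library, with haemoglobin genes, Cd3e and Cdh5 at 0, and of the few that passed the filter only Pdgfra, a stromal marker, was called (higher). How far the differences in maturation markers go with those in the metabolic genes was not tested.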

How the data were processed

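Values come from 4 RNA-seq libraries in 2 groups of 2, assigned from the sample titles. The submitters' processing notes name RSEM 1.3.3, STAR 2.7.8a, FastQC 0.11.8 and cutadapt 2.3, and the build GRCm38. No source used here gives their settings, the annotation release or the strand setting, so values of overlapping, antisense and near-identical genes are uncertain. The authors deposited expected counts per gene, which were whole numbers as deposited, and FPKM, scaled by the authors for gene length and library size. Positions and exonic lengths came from GENCODE M21, which matched 55240 of 55426 gene identifiers. Exonic length, also used for the gene-length trend, counts all annotated exons of a gene, merged.

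Counts were filtered with edgeR's filterByExpr, scaled by TMM factors (0.953 to 1.02) and tested over 13245 genes with edgeR's quasi-likelihood test (glmQLFit with legacy set to true; edgeR 4.0.16, R 4.3.3) and Benjamini-Hochberg adjustment at 0.05. The SE of a fold change follows from its size and F statistic. The test had 2 residual degrees of freedom per gene and 3.41 prior degrees of freedom borrowed across genes. The fit was first tested on simulated data with equal spread in both groups, which does not cover the unequal spread of the pairs here. Named genes are all 35 members and, of each further list, the called genes with the 2 largest changes in each direction at a mean of at least 1 CPM. The members and lists were chosen with earlier results of these data known. Alternatives were other scalings and filters, a replicate block, each library left out, DESeq2 1.42.0, limma-voom and limma 3.58.1 on log2 FPKM with pseudocounts of 1 and 0.1, removal of a gene-length trend (lowess span 0.3), and removal of ribosomal RNA and mitochondrial genes. The sum of Pgk1 with its copies and the wider kinase and transporter families were added after the data were seen. Cell type markers, Mpc1, Pygl, Ddit4, Mxi1, Pklr, Pck1, Pdk4, Pgk1-rs7 and CT010467.1 are named outside the rule, after their values were seen. Of the genes in the lists 1 symbol had no row in the tables.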

Additional observations from a re-analysis of the deposited data

How the results depend on the processing

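The number of members called lower was 7, and it lay between 6 and 10 under other scalings and filters, with DESeq2, limma-voom and limma on filtered log2 FPKM, after removal of the gene-length trend or of ribosomal RNA and mitochondrial genes, and with a replicate block. It was 2 with limma on log2(FPKM + 1) without a filter, and 3 to 26 with a library left out, where the number called higher was 0 to 5. Over all genes, 573 to 4581 were called higher and 859 to 4507 lower with a library left out. With at least 5 CPM in 2 libraries 545 and 805 genes were called higher and lower, and with limma on log2(FPKM + 1) without a filter 293 and 381. With limma on filtered log2(FPKM + 1) 837 were called lower.

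The replicate block, which pairs libraries by number, called 1435 genes higher and 1698 lower, 23.7% of all genes tested. It called 8 members lower and 0 higher, 24.2% of members, with Tpi1 added (adjusted p = 0.0392). Replicate numbers do not pair the libraries by design, and the correlation of same-numbered deviations was 0.031 over 8573 genes.

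Among members that were not called, a direction turned in a few. With a library left out, log2 fold changes ran from -0.13 to 0.24 for Hk2, from -0.22 to 0.090 for Hif1a, from -0.45 to 0.17 for Taldo1, from -0.11 to 0.014 for Pdha1, from -0.036 to 0.16 for G6pdx and from -0.21 to 0.17 for Slc16a1. Removal of the gene-length trend gave -0.012 for Hk2. With limma on log2 FPKM, Pfkfb4 was at 0.15 (pseudocount 1, with or without a filter) and 0.16 (pseudocount 0.1), Pdha1 at 0.0016 in all 3 fits, and Slc16a1 at 0.034 and 0.035. Scaling by library totals gave 0.0044 for Pdha1 and 0.016 for Slc16a1. The cause was not tested.

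The call of Pgk1 ended with at least 5 CPM in 2 libraries (adjusted p = 0.0553) and with limma on log2 FPKM (0.0566, 0.0533 and 0.12). In the fit of log2(FPKM + 1) without a filter the calls of Slc2a3 (0.0619), Egln3 (0.0673), Slc16a3 (0.0852) and Hk1 (0.088) ended too. Of the further genes, Mpc2 and Hmox1 were the named ones still called there. Pcx, Pdhx and Pygb also lost their calls with limma on filtered log2 FPKM, and Pygb with scaling by library totals (0.0732) and with no filter on low counts (0.0527). DESeq2 also called Eno1, Ldha and Tpi1 lower, and removal of the length trend Ldha, Pdk1 and Pfkfb3. From expected counts without length scaling, the mean share of Slc2a1 was 70.3% with MLL-ENL and 90.8% with the mutant. In the same order, Pdk3 was at 15.3% and 7.49% and Slc16a3 at 79.3% and 70.9%. Pfkp was at 49.8% and 50.7% and Pfkl at 45.3% and 44.2%, closer to each other than by FPKM.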
